A study of Homo sapiens with 2 samples.

Results

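PRMT6 promoter peaks that overlapped no PARP1 peak were 938 of 9080 PRMT6 peaks in MDA-MB-231 cells, a share of 10.3% (95% interval 9.71% to 11.0%). Here they are called PRMT6-only promoter peaks. A peak was counted when it lay on chromosomes 1 to 22 or X, had any base no farther than 3 kb from a protein-coding gene's 5′ end, and shared not even 1 bp with a peak of the PARP1 list. Of 3041 PRMT6 promoter peaks, 938 met this rule (30.8%, 29.2% to 32.5%), and the other 2103, called shared promoter peaks, overlapped a PARP1 peak. Away from promoters, 65.1% of 6033 PRMT6 peaks were without PARP1 overlap. Both lists together held 20731 peaks. Absence of overlap is a statement about the deposited lists, since a PARP1 signal below the peak caller's threshold would not be in them.

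The study profiled PRMT6 and PARP1 in MDA-MB-231, an established human triple-negative breast cancer cell line, to find the genes that both proteins bind. The cells were untreated and unmodified, and 1 library was made per antibody. With 1 library per antibody there was no replicate, and every value describes these libraries. No test between groups was made. Shares carry 95% exact binomial (Clopper-Pearson) intervals, and medians carry 95% intervals from order statistics. Both treat peaks or genes as independent and cover counting error only. The peak lists hold no read counts, so the depth behind a peak is unknown. Of 8 genes typical of mesenchymal and basal breast cancer lines, 4 (VIM, CAV1, FOSL1 and ANXA1) had a promoter peak in either list, of 8 luminal genes 1 (KRT19) did, and of 8 genes of other cell types 0 did, with CD44, AXL, SNAI2 and EGFR among those without a peak. Of all protein-coding genes, 27.4% had a promoter peak in either list.

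PRMT6 is a nuclear enzyme that places asymmetric dimethyl marks on arginines, including one near the tip of histone H3 that opposes the methylation of the neighbouring lysine found at active promoters. PARP1 is an abundant nuclear enzyme that attaches ADP-ribose chains to proteins, chiefly at DNA breaks, and also binds the promoters of active genes. Many human promoters lie in CpG islands and carry a GC box, which is bound by SP and KLF factors. A second common element is the CCAAT box, which is bound by the trimeric factor NF-Y a short way upstream of the start.

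The promoters of the 5 highest-scoring PRMT6-only promoter peaks are printed because they show the sequence in which such peaks sat. Each line gives the 250 bases before the start, 5′ to 3′ on the strand of the gene, from RefSeq in build GRCh38.p14. Capitals mark the GC box (GGGCGG or its complement CCGCCC) and the CCAAT box (CCAAT or ATTGG).
ANKRD39 (chr2:96858017-96858266, minus strand): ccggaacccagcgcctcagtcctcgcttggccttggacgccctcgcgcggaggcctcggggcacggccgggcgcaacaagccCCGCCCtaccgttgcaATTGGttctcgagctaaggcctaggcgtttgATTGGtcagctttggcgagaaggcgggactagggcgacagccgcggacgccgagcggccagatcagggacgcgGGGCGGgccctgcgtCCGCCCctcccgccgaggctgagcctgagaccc
FGF5 (chr4:80266338-80266587, plus strand): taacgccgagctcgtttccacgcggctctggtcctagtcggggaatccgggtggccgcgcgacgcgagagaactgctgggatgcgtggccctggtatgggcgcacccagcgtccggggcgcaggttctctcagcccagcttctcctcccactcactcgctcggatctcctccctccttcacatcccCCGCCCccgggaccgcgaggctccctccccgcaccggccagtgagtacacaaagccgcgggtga
SH3GLB2 (chr9:129028332-129028581, minus strand): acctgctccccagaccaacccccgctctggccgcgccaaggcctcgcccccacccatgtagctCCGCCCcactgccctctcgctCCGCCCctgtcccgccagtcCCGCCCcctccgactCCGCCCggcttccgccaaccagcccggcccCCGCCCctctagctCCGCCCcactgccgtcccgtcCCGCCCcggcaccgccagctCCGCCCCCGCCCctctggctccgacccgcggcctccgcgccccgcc
ESRRA (chr11:64305274-64305523, plus strand): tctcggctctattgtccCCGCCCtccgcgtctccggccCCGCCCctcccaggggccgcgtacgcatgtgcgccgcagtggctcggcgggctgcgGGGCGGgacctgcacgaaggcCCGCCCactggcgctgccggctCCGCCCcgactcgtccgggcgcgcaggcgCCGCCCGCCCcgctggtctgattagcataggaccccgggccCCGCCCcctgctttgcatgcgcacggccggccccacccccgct
IL11RA (chr9:34651935-34652184, plus strand): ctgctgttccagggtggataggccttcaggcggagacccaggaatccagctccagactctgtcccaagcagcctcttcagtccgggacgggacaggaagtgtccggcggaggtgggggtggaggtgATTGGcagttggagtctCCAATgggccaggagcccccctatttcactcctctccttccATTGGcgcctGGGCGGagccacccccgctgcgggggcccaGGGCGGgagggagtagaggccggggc

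The peaks at ANKRD39, FGF5, SH3GLB2 and ESRRA covered all 250 printed bases, and the peak at IL11RA covered 231 of them. The number of GC boxes differed widely, from 1 at FGF5 to 9 at SH3GLB2. CCAAT boxes were present in 2 of the 5 sequences, with 2 at ANKRD39 and 3 at IL11RA. FGF5, SH3GLB2 and ESRRA had 0.

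For comparison, the promoters of 3 of the highest-ranked shared promoter peaks, at VMAC, CIC and KMT5C, ranked 2, 3 and 4 of the PRMT6 list. They are printed in the same way because, of 14 motifs searched, the CCAAT box was the one whose share differed by the most percentage points between shared and PRMT6-only promoters.
VMAC (chr19:5904622-5904871, plus strand): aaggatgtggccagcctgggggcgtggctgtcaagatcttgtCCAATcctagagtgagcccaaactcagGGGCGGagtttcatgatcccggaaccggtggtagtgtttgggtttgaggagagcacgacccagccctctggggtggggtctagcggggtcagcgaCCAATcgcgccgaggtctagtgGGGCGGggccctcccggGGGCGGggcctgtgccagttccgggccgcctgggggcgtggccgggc
CIC (chr19:42268280-42268529, plus strand): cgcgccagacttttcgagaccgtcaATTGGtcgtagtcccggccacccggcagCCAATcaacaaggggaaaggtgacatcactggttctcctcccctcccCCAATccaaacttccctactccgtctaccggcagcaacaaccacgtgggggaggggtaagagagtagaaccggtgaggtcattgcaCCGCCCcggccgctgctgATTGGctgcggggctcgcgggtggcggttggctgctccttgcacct
KMT5C (chr19:55339626-55339875, plus strand): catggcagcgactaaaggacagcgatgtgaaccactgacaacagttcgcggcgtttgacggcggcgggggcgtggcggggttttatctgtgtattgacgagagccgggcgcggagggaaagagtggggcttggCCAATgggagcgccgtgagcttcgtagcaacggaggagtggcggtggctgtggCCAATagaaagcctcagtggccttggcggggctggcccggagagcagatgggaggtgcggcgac

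CCAAT boxes numbered 2 at VMAC, 4 at CIC and 2 at KMT5C, so each of these promoters held more than 1. Both sets of sequences were chosen by score and illustrate the groups. The shares over all promoters are given next.

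PRMT6-only promoters carried the CCAAT box less often than shared promoters. The PRMT6-only promoter peaks marked 1087 genes, of which 896 (82.4%) had a listed promoter of 300 bases, running from 250 before to 50 after the start. A CCAAT box was found in 321 of these 896 promoters (35.8%, 32.7% to 39.1%) and in 1067 of 2113 promoters of genes with a shared peak (50.5%, 48.3% to 52.7%). Over all 14867 listed protein-coding promoters the share was 36.5%, which lay inside the interval of the PRMT6-only genes and below that of the shared genes. In the higher-scoring 50% of each list, the PRMT6-only share was 41.9% (38.4% to 45.5%), above that of all promoters. The setting also shortens the PARP1 list, so its 768 PRMT6-only peaks include some that overlap a PARP1 peak of the full list. Of the 938 peaks, 450 lay in the upper 50% of the PRMT6 list. In the full lists, genes with a PARP1 promoter peak and no PRMT6 promoter peak lay between PRMT6-only and shared genes, at 40.3% (37.7% to 42.8%). Promoters with at least 2 CCAAT boxes were 12.5% (10.4% to 14.8%) of the PRMT6-only set and 26.7% (24.8% to 28.6%) of the shared set. With a match centred 100 to 50 bases before the start, the classical place of the element, the shares were 15.8% (13.5% to 18.4%) and 26.6% (24.7% to 28.5%).

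The direction of this difference was the same in each score quartile of the PRMT6 list, although shared peaks scored higher. For this comparison each peak was given the promoter of its nearest gene, which was listed for 764 of 938 PRMT6-only and 1762 of 2103 shared peaks. The CCAAT share was 34.6% (31.2% to 38.0%) against 51.8% (49.4% to 54.1%). In the lowest score quartile it was 28.7% (22.6% to 35.5%) against 45.1% (34.6% to 55.8%), in the second 33.5% (26.9% to 40.6%) against 46.4% (39.4% to 53.4%), and in the third quartile 38.1% (32.2% to 44.4%) against 46.8% (42.2% to 51.4%). These pairs of intervals overlapped. In the highest quartile they did not, with 38.7% (29.6% to 48.5%) against 55.8% (52.7% to 58.9%). Among peaks that spanned the 5′ end the shares were 35.7% (30.8% to 40.8%) and 56.8% (53.9% to 59.7%), among peaks off the 5′ end 33.5% (28.8% to 38.42%) and 42.4% (38.49% to 46.4%), and among promoters with a high CpG ratio, defined below, 33.6% (30.0% to 37.3%) and 52.7% (50.2% to 55.1%). Among peaks wider than the smallest width of the list they were 39.8% (34.5% to 45.3%) and 53.4% (50.8% to 56.0%). Score and width were compared in classes and were not matched peak by peak.

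**Figure D1:**
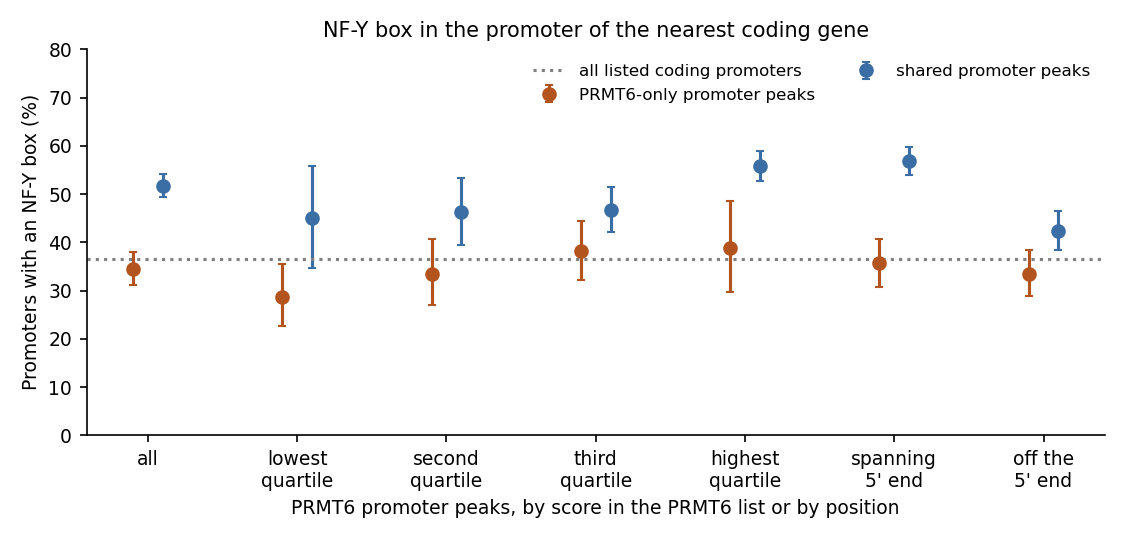
Share of promoters (percent) with an NF-Y (CCAAT) box for PRMT6-only and shared PRMT6 promoter peaks, over all peaks, by score quartile of the PRMT6 list and by position relative to the 5′ end. Points are shares, bars are 95% exact binomial intervals, and the dotted line is the share over all listed protein-coding promoters (36.5%). The shared peaks lie higher in each of the classes, and the intervals are apart for all peaks, for the highest quartile and for both classes of position.

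The GC box and the CpG content did not separate the groups in this way. A GC box was found in 74.4% (71.5% to 77.3%) of the promoters of PRMT6-only genes, in 76.9% (75.05% to 78.7%) of those of shared genes and in 69.3% (66.9% to 71.7%) of those with a PARP1 promoter peak and no PRMT6 promoter peak. Over all listed promoters it was 59.1%. The ratio of observed to expected CpG had a median of 0.862 (0.845 to 0.874) in PRMT6-only genes and 0.849 (0.842 to 0.857) in shared genes, and 0.769 over all listed promoters. A ratio of at least 0.6, a usual mark of CpG islands, was reached by 86.4% (84.0% to 88.6%) and 89.7% (88.4% to 91.0%), against 66.7% of all listed promoters. The TATA box (TATAAA) was found in 5.47% (4.07% to 7.17%) of PRMT6-only and 4.92% (4.04% to 5.93%) of shared promoters, below the 9.71% of all. The core of the ETS element (CCGGAAG), which ETS factors such as GABPA bind, was as frequent in PRMT6-only as in shared promoters, with 19.5% (17.0% to 22.3%) and 19.5% (17.8% to 21.3%), against 14.5% of all. It was found in 24.2% (22.1% to 26.5%) of promoters with a PARP1 promoter peak and no PRMT6 promoter peak. The E-box (CACGTG), which MYC and the clock factors bind, was found in 11.3% (9.28% to 13.5%) and 10.7% (9.45% to 12.1%), against 8.89% of all. Motifs were searched on both strands, and a match is a stretch of letters, not a measured binding site.

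PRMT6-only promoter peaks scored lower than shared ones, and absence of overlap was itself the rule that formed the groups, so the score is given as a description. The score, a −log10 p-value given by the peak caller, ranks peaks within a list. It had a median of 5.34 (5.17 to 5.51) and ran from 3.09 to 15.87, against a median of 7.91 (7.68 to 8.12) for shared peaks. As a percentile of the PRMT6 list the medians were 48.0 (43.3 to 51.1) and 78.5 (77.0 to 79.6). The highest 10% of the list held 20 PRMT6-only promoter peaks (2.13%) and 552 shared ones (26.2%). From the lowest to the highest quartile of the list, the share of promoter peaks without PARP1 overlap was 68.0%, 49.9%, 35.6% and 10.4%. Scores came in steps, with 161 distinct values among the 938 peaks. The 3 commonest values held 239 peaks (25.5%), against 5.04% of the shared peaks. PARP1 promoter peaks without PRMT6 overlap had a median percentile of 41.3 (38.8 to 42.7) in the PARP1 list, with 1.55% in its highest 10%.

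**Figure D2:**
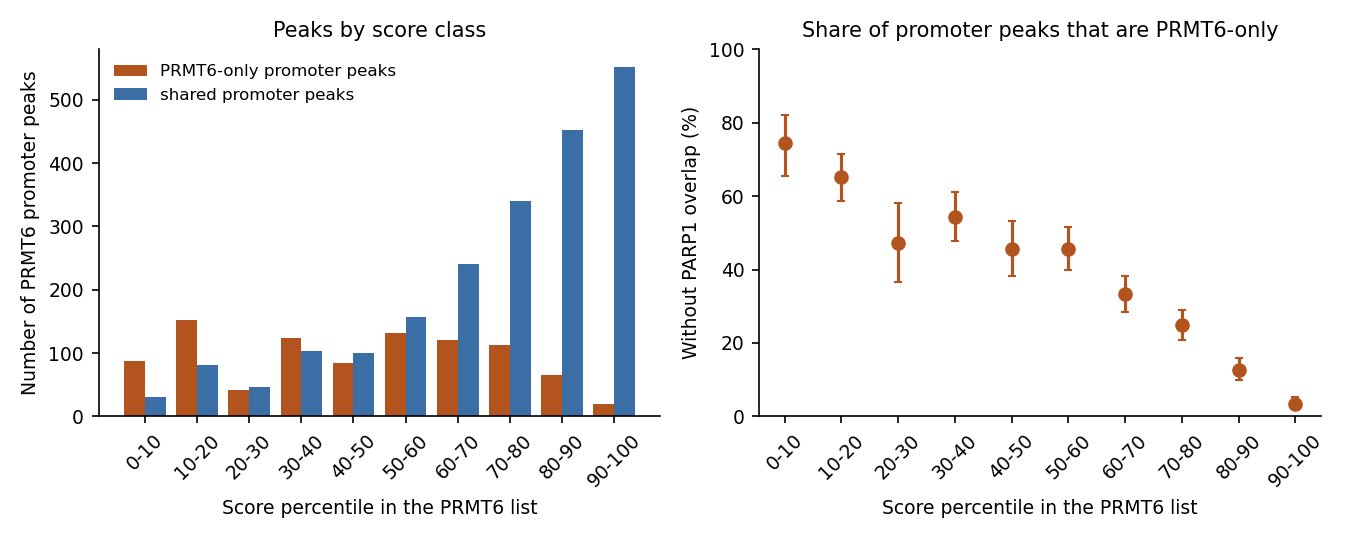
Left, number of PRMT6-only and shared promoter peaks in classes of 10 score percentiles of the PRMT6 list; right, share of promoter peaks in the same class (percent) that overlapped no PARP1 peak, with 95% exact binomial intervals as bars. The share goes from 74.4% in the lowest class to 3.50% in the highest.

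Most of these peaks were also narrow. The smallest width in the PRMT6 list, end minus start, was 288 bp, and 533 PRMT6-only promoter peaks (56.8%, 53.6% to 60.0%) had exactly this width, against 358 shared peaks (17.0%, 15.4% to 18.7%). The median widths were 288 and 421 bp. Within the lowest score quartile the shares at the smallest width were 85.5% (80.5% to 89.7%) and 62.3% (52.7% to 71.2%), and within the third quartile 40.1% (34.7% to 45.8%) and 23.8% (20.3% to 27.5%). In the highest quartile 2 of 136 and 5 of 1174 peaks had this width. Of PARP1 promoter peaks without PRMT6 overlap, 32.6% (30.4% to 34.8%) had the smallest width of the PARP1 list, 200 bp.

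The peaks at the top of the group lay at genes of varied function. The highest was at ANKRD39, with a score of 15.87 and rank 308 of the list. FGF5, a secreted fibroblast growth factor, followed with 15.35 (rank 342), SH3GLB2, an endophilin, with 15.12 (rank 360), ESRRA, an orphan nuclear receptor that drives genes of mitochondrial energy metabolism, with 14.45 (rank 411), and IL11RA, the receptor chain for interleukin 11, with 12.89 (rank 552). Each of these 5 peaks spanned the 5′ end. TFPI, the inhibitor of the tissue factor pathway of coagulation, had a peak 887 bp downstream (score 12.78, rank 569), and BCL9L, a coactivator of β-catenin, had one 1969 bp upstream (score 12.63, rank 575). The peak of BBLN spanned the 5′ end (score 12.35, rank 620). The remaining 7 of the highest 15 lay at INAFM1, GGNBP2, MAN1C1, ZNF77, DSN1, DESI2 and SEC61A2, with ranks from 643 to 822. DSN1 encodes a kinetochore protein and MAN1C1 a mannosidase of the Golgi. The highest downstream peaks, after TFPI, were those of GGNBP2 (405 bp, rank 662) and SUN1 (705 bp, rank 822), a protein of the inner nuclear membrane.

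PRMT6-only promoter peaks lay over the 5′ end less often than shared ones. Of the 938 peaks, 453 spanned the 5′ end (48.3%, 45.1% to 51.5%), 261 lay upstream (27.8%, 24.98% to 30.8%) and 224 lay downstream (23.9%, 21.2% to 26.7%). For shared peaks the shares were 64.1% (62.0% to 66.1%), 21.4% (19.7% to 23.2%) and 14.6% (13.1% to 16.1%). PARP1 promoter peaks without PRMT6 overlap, the counterpart in the other list, spanned the 5′ end in 40.2% (37.9% to 42.6%) of 1741 cases. Shared peaks were also wider and higher in score, and the part of width in this difference was not tested. Within the lowest score quartile the spanning share was 33.9% (27.9% to 40.2%) against 55.3% (45.7% to 64.6%), and within the highest 59.6% (50.8% to 67.9%) against 69.4% (66.7% to 72.0%). The intervals were apart in the lowest quartile and overlapped in the highest. They also overlapped in the second and the third quartiles, with 47.6% against 53.8% and 55.1% against 59.2%. The share of promoter peaks without PARP1 overlap was lowest among spanning peaks, at 25.2% (23.2% to 27.2%), and highest more than 1000 bp upstream, at 55.8% (46.8% to 64.5%).

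**Figure D3:**
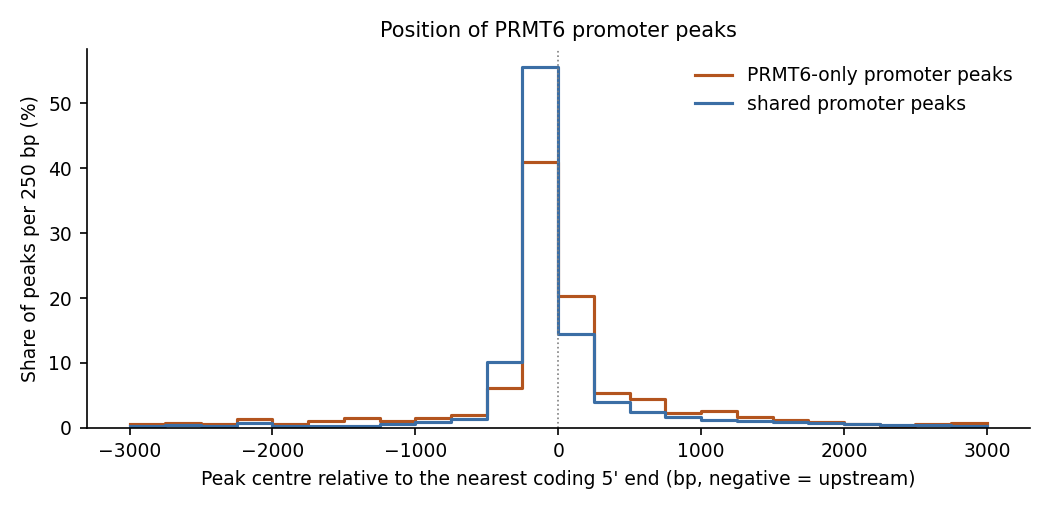
Distance of the peak centre from the nearest protein-coding 5′ end (bp, negative is upstream, dotted line at the 5′ end) for PRMT6-only and shared promoter peaks, as the percent of each group per 250 bp. Both groups peak in the 250 bp just upstream of the 5′ end, and the PRMT6-only peaks hold a larger share from there into the gene, in the first 250 bp downstream.

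Off the 5′ end of the gene record, 81 of 485 PRMT6-only peaks (16.7%, 13.5% to 20.3%) spanned another start listed by RefSeq, against 198 of 756 shared peaks (26.2%, 23.1% to 29.5%). Promoter windows of a single gene held 786 of the PRMT6-only peaks (83.8%, 81.3% to 86.1%), and 146 lay in windows of 2 genes and 6 in windows of 3 or more. For shared peaks the single-gene share was 77.3% (75.4% to 79.0%). The edge of the window fell between KLK3, whose peak lay 2994 bp from the 5′ end and was the farthest counted, and CELSR2, whose peak at 3022 bp was the nearest left out.

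Most of these peaks lay more than 10000 bp from the nearest listed PARP1 peak, but a small group lay right beside a PARP1 peak. The median gap to the nearest PARP1 peak was 39.3 kb (35.9 to 44.9), against 64.7 kb (61.3 to 68.3) for PRMT6-only peaks away from promoters. A PARP1 peak lay within 500 bp of 57 PRMT6-only promoter peaks (6.08%, 4.63% to 7.80%), against 1.48% (1.12% to 1.90%) of those away from promoters. The smallest gaps were 3 bp at HECTD2, 4 bp at ASH2L, and 5 bp at DESI2 and EEFSEC. On the other side of the rule, the smallest overlaps were 1 bp at TTYH2, 3 bp at NRBP1 and 6 bp at HABP4. Of the 57 close pairs, the PARP1 peak was the upstream one in 36 (63.2%, 49.3% to 75.6%), and its centre was the nearer to the 5′ end in 31 (54.4%, 40.7% to 67.6%). ESRRA, with a PARP1 peak 193 bp away, INAFM1 (139 bp), GGNBP2 (61 bp) and DESI2 were among the highest 15 peaks.

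**Figure D4:**
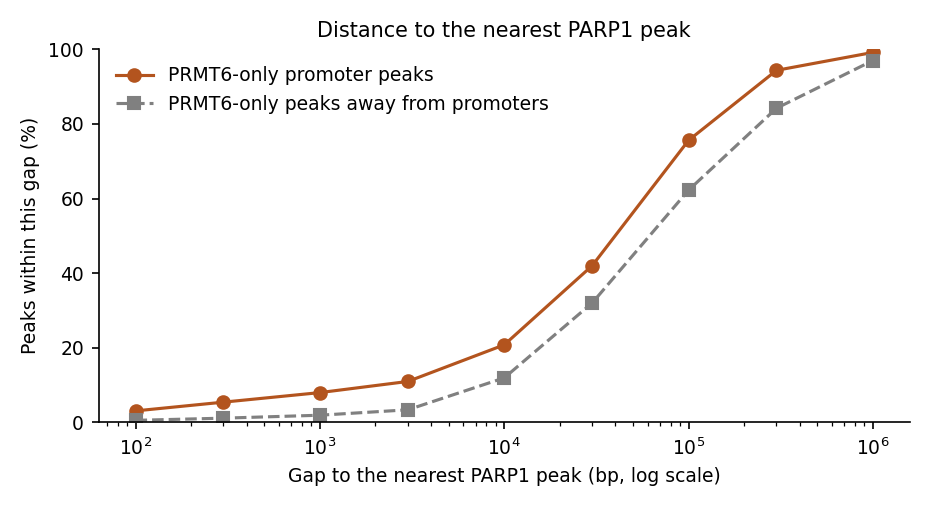
Cumulative percent of peaks with a PARP1 peak within a given gap (bp, log scale), for PRMT6-only peaks at promoters and away from promoters. At 1000 bp the values are 7.996% and 1.93%, and at 100000 bp 75.6% and 62.2%.

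Of the 938 peaks, 100 (10.7%, 8.76% to 12.8%) lay at a promoter with a PARP1 peak elsewhere in the same window. Of the 1087 genes, 128 (11.8%, 9.92% to 13.8%) also had a PARP1 promoter peak, against a background of 22.5% of all 19674 protein-coding genes, and 31 also had a shared peak. The rule itself lowers the shares of 10.7% and 11.8%, since it leaves out peaks that overlap PARP1. The background is therefore given as a description only. The other 959 genes (4.87% of all protein-coding genes) had a PRMT6-only promoter peak and no PARP1 promoter peak at all. Among the peaks in the upper part of the list by score, the ones farthest from PARP1 were at CYLD, a deubiquitinase that restrains NF-κB signaling (1778144 bp, rank 1748), METTL25 (1589071 bp, rank 3218) and SLC7A11 (772449 bp, rank 855). SLC7A11 encodes the cystine and glutamate exchanger that feeds glutathione synthesis, and its peak spanned the 5′ end with a score of 10.96.

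By chromosome, the share of promoter peaks without PARP1 overlap was lowest on chromosome 19, with 68 of 324 (21.0%, 16.7% to 25.8%), and highest on chromosome 4, with 39 of 82 (47.6%, 36.4% to 58.9%). Promoter peaks on chromosome 19 also scored higher, with a median percentile of 85.6 against 64.5 on chromosome 4, and the part of the score in this difference was not tested. Among promoter peaks in the upper part of the list the shares were 15.8% (11.8% to 20.6%) and 36.7% (24.6% to 50.1%). Chromosome 19 was not the lowest there, with 14.4% (8.76% to 21.8%) on chromosome 2 and 14.7% (8.30% to 23.5%) on chromosome 14. The CCAAT difference was present on chromosome 19, at 31.7% (20.6% to 44.7%) for PRMT6-only and 57.3% (50.6% to 63.9%) for shared peaks.

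Of 19674 protein-coding genes, 1087 (5.53%) had a PRMT6-only promoter peak, and gene lists were read against this share. Among 3600 genes with any PRMT6 promoter peak the share was 30.2%. Of 36 lists, 20 lay above 5.53%. The interval of 1 list lay wholly above it and that of 1 list wholly below. The list above was that of enzymes of arginine methylation and ADP-ribosylation, the families of PRMT6 and PARP1 themselves, with 8 of 34 genes (23.5%, 10.7% to 41.2%). The intervals were not adjusted for the number of lists. Of the 14 genes of this list with any PRMT6 promoter peak, 8 were PRMT6-only genes and 6 had a shared peak.

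The strongest of these 8 was PARP6, a mono-ADP-ribosyltransferase, with a score of 7.59 (rank 2121) and a peak over the 5′ end. The arginine methyltransferase PRMT2 followed with 5.10 (rank 5468, 117 bp downstream), with a PARP1 peak 109 bp away, then MACROD2, which removes ADP-ribose from proteins, with 4.79 (rank 5718), and the methyltransferase PRMT7 with 4.48 (rank 6841). MACROD1, also a remover of ADP-ribose, scored 4.34 and ZC3HAV1, an antiviral PARP family member without enzyme activity, 3.63. PARP11 and PARP4, named here because they complete the list, scored 3.35 and 3.12. Apart from PARP6 these scores lie in the lower part of the list, and in the higher-scoring 50% of each list 1 of the 34 genes was in the group. Without peaks of the smallest width 3 were. The promoters of the 3 genes of the list with a peak wider than 288 bp are printed in the form described above.
PARP6 (chr15:72272555-72272804, minus strand): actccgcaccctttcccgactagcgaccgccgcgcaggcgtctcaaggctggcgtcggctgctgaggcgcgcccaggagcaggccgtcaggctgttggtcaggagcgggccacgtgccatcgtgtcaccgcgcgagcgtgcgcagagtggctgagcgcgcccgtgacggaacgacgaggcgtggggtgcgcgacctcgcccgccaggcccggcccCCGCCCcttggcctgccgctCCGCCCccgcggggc
MACROD2 (chr20:13995266-13995515, plus strand): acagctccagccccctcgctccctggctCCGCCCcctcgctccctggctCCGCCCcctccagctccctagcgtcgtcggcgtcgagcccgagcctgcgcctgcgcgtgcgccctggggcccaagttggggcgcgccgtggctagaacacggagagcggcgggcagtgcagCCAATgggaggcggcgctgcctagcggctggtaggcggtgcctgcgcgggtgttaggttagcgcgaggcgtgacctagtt
PRMT7 (chr16:68310769-68311018, plus strand): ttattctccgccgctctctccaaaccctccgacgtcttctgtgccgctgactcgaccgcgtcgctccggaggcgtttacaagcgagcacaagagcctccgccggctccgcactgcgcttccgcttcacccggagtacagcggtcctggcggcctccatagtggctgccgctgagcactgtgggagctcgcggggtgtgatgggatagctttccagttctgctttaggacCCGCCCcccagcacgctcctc

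The PARP6 and MACROD2 promoters each held 2 GC boxes and the PRMT7 promoter 1. A CCAAT box was present at MACROD2 and in neither of the others. The MACROD2 peak also spanned the 5′ end of SEL1L2, and the PRMT7 peak that of SLC7A6OS. The peaks at PARP6 and MACROD2 covered the 250 printed bases and that at PRMT7 covered 147 of them.

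**Figure D5:**
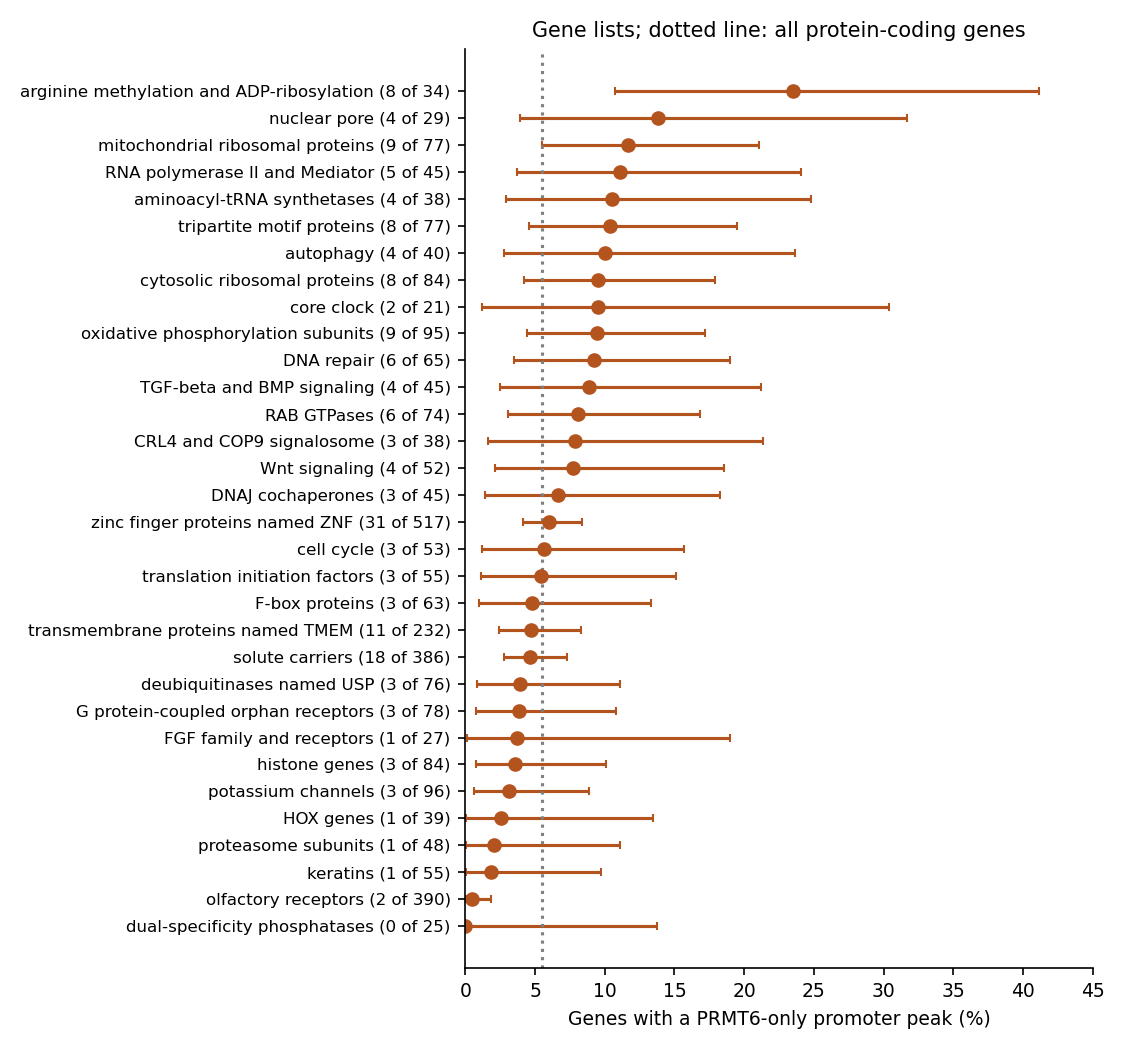
Share of the genes in each list (percent) with a PRMT6-only promoter peak, for lists of 20 genes or more, with 95% exact binomial intervals as bars and the share over all protein-coding genes (5.53%) as a dotted line. Counts stand beside each name, and only the first list (8 of 34) and the olfactory receptors (2 of 390) have intervals that leave out the line.

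Lists of genes that most cells use had intervals that included the background and shares on either side of it. Mitochondrial ribosomal proteins had 9 of 77 genes (11.7%, 5.49% to 21.0%), with MRPS10 the highest (score 8.42). Subunits of oxidative phosphorylation had 9 of 95 (9.47%, 4.42% to 17.2%), led by the ATP synthase subunit ATP5F1E (9.03) and the complex I subunit NDUFS8 (7.59, 2389 bp upstream), which also had a shared peak. Cytosolic ribosomal proteins had 8 of 84 (9.52%, 4.20% to 17.9%), among them RPL13 (7.93) and RPS16 (6.97). RNA polymerase II and Mediator had 5 of 45 (11.1%, 3.71% to 24.1%), among them MED31 (7.49) and POLR2G (7.31). Nuclear pore genes had 4 of 29 (13.8%, 3.89% to 31.7%). Translation initiation factors had 3 of 55 (5.45%, 1.14% to 15.1%) and proteasome subunits 1 of 48 (2.08%, 0.0527% to 11.1%). A shared peak was found at 10 of the 48 proteasome genes, where 12.9% of all protein-coding genes had one.

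DNA repair genes had 6 of 65 (9.23%, 3.46% to 19.02%). They were XRCC6, the DNA end-binding subunit of Ku (score 7.26, rank 2348), the damage mediator MDC1 (6.99, 2814 bp upstream), the lesion-bypass polymerase POLH (6.33), the checkpoint kinase ATR (5.10), the end-processing nuclease DCLRE1C (4.68) and the damage sensor XPC (4.48). The MDC1 peak spanned the 5′ end of its neighbour TUBB, and MDC1 also had a shared peak. The peaks at XRCC6, POLH and DCLRE1C also spanned the 5′ ends of DESI1, XPO5 and MEIG1, and a PARP1 peak lay 65 bp from that at XPC. A shared peak was found at 23 of the 65, against the 12.9% of all genes. Cell cycle genes had 3 of 53 (5.66%, 1.18% to 15.7%), close to the background. Of these, the cyclin-dependent kinase inhibitors CDKN2C (10.66, rank 928) and CDKN1B (10.47, rank 976) stood in the upper part of the PRMT6 list, ahead of CDC20 (6.61), an activator of the anaphase-promoting complex. The CDKN2C peak spanned the 5′ end of FAF1, and the CDKN1B peak also spanned that of GPR19. Wnt signaling genes had 4 of 52 (7.69%, 2.14% to 18.5%), namely ZNRF3, DKK3, FZD6 and APC, with scores from 5.55 down to 3.12. Genes of TGF-β and BMP signaling had 4 of 45 (8.89%, 2.48% to 21.2%), led by the SMAD corepressor SKI (9.38, rank 1299).

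Core clock genes had 2 of 21 (9.52%, 1.17% to 30.4%). These were NR1D1 (score 7.06, rank 2525) and BHLHE40 (5.71, rank 4076), both transcriptional repressors with a PRMT6 peak over the 5′ end, and both also had a PARP1 promoter peak. At BHLHE40 the gap between them was 65 bp, so the gene leaves the group when PARP1 peaks within 500 bp count as overlap. At NR1D1 it was 1146 bp, and NR1D1 also had a shared peak. A shared peak was found at 6 of the 21, against 12.9% of all genes. Among 10 of the genes in the study's qChIP, its control GAPDH included, 2 were in the group, BHLHE40 and GAPDH (6.14, 4 bp upstream). The interval of this share, 2.52% to 55.6%, included the background of 5.53%. Both genes also had a PARP1 promoter peak, at GAPDH 1182 bp from the PRMT6 peak. Of the 10 genes, 5 had a shared peak and 7 a PARP1 promoter peak, against 12.9% and 22.5% of all genes. The paper used qChIP to check targets found by its own profiling of these proteins. These shares therefore depend on how the genes were chosen, and are given as a description only. At BHLHE40 the paper reports PRMT6, PARP1 and CUL4B together on the promoter by ChIP and Re-ChIP.

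Families with fewer PRMT6-only genes than the background included the olfactory receptors, with 2 of 390 (0.513%, 0.0622% to 1.84%). They were OR52B2 (4.79) and OR56B1 (4.48), both with a peak of the smallest width. Of the 390, 0 had a shared peak and 1 had a PARP1 promoter peak, against 12.9% and 22.5% of all genes. The low share was thus not particular to PRMT6-only peaks. Histone genes had 3 of 84 (3.57%, 0.743% to 10.1%) and 18 with a shared peak, against 12.9% of all genes, and H2AC15 and H2BC15 were counted for the same peak. Dual-specificity phosphatases, which switch off MAP kinases, had 0 of 25 (upper bound 13.7%) and 6 with a shared peak, against 12.9% of all genes. Solute carriers had 18 of 386 (4.66%, 2.79% to 7.27%), led by SLC7A11. The intervals of histone genes, dual-specificity phosphatases and solute carriers all included the background of 5.53%. Zinc finger genes named ZNF had 31 of 517 (6.00%, 4.11% to 8.40%), close to the background, led by ZNF77 (11.53, rank 752).

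A few genes had more than 1 PRMT6-only promoter peak. They numbered 9 of 1087, at 6 sites. At IGF2BP2, an RNA-binding protein of the IGF2 mRNA, the peaks lay 15 bp upstream (score 8.22) and 2522 bp downstream (6.48). The divergent pair CYB5D2 and ZZEF1 shared peaks of 7.68 and 5.20, and NAB2 and NEMP1 shared peaks of 6.57 and 5.45. IFT80 and SMC4 shared peaks of 4.48 and 3.12. The others were DNAAF2 and FITM2.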

How the data were processed

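PRMT6 and PARP1 were profiled in untreated MDA-MB-231 cells, with 1 library per antibody. The study's methods describe CUT&Tag, while the labels also describe adaptor ligation, so the library chemistry is uncertain. The submitters' processing notes name CASAVA 1.4, Bowtie 0.12.8, MACS, MACS2 and build hg19, and their thresholds, control library and treatment of duplicates are not given in the sources used here. The deposited lists give chromosome, start, end and a score, which is the −log10 of the p-value from the authors' peak caller. Positions were GRCh38: 30.2% of PRMT6 peaks lay within 1 kb of a coding 5′ end in GRCh38, against 4.04% in GRCh37. Starts and ends were used as listed. Counting the starts from 1 in place of 0 would turn no PRMT6-only peak into a shared one, since the smallest gap was 3 bp.

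Each RefSeq protein-coding gene record (GRCh38.p14) had 1 start. Strand came from the RefSeq promoter table (15812 genes) or GENCODE (3862), and 300 genes without a strand were left out, as were 6 PRMT6 and 16 PARP1 peaks on other sequences. Where both sources gave a strand, 15337 of 15407 agreed. Promoters were the listed starts nearest to the record's 5′ end within 3 kb. The set is incomplete, and genes with neither peak are not compared because fewer than 80% had a promoter. All listed promoters, the background for motifs and CpG content, cover 75.6% of protein-coding genes, which is also below 80%. For 14 motifs, either strand was searched with no mismatch and overlapping matches counted. Each motif in the text is spelled out, and the other 9 gave shares that are not printed. Ranks and percentiles are within a list, and tied scores share a rank. Python 3.11.15, numpy 2.4.6, pandas 2.3.3, scipy 1.17.1, matplotlib 3.10.9 and bedtools 2.31.1 were used, and the code was tested on simulated peaks.

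The members, gene lists, motifs and naming rule were chosen with earlier results of these data known. Named are the 15 highest peaks, the 3 highest per position class, up to 6 genes per list, the 5 peaks of the upper 50% farthest from PARP1, genes with several peaks, peaks at the thresholds and the qChIP genes. The splits of the CCAAT share by score, position, CpG content and chromosome were chosen after the shares were seen. Alternatives covered score, overlap, window, width, strand and start choice. Some named items of the rule are not reported here.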

Additional observations from a re-analysis of the deposited data

How the results depend on the processing

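Of 112 alternatives computed, 34 moved a value out of its interval or a count by over 1.5 times, and 78 did not. The settings of strand from GENCODE alone and of every listed start were chosen after the data were seen. In the higher-scoring 50% of each list, 35.0% of promoter peaks were without overlap, the median percentile was 68.9, 24.5% had the smallest width, 58.2% spanned the 5′ end, 5.34% had another PARP1 peak at the promoter, the median gap was 62.7 kb, 41.9% of promoters had a CCAAT box and 4.71% of genes were in the group, in part because both lists are shorter by construction. Without peaks of the smallest width, 405 peaks were left (18.8% of promoter peaks), at a median percentile of 66.9, 59.3% spanned the 5′ end, the median gap was 32.1 kb, 40.7% had a CCAAT box and 2.50% of genes were in the group. With PARP1 peaks within 500 bp counted as overlap, the share was 29.0%, 4.88% had another PARP1 peak and 5.14% of genes were in the group. Within 1 kb of the 5′ end the values were 29.1% without overlap, 52.9% at the smallest width, 56.9% spanning, 8.29% with another PARP1 peak and 4.66% of genes. With every listed start, 51.6% spanned a start, 14.9% had another PARP1 peak and 6.10% of genes were in the group. Genes with a peak within 250 bp of the start had a median CpG ratio of 0.886. Of all protein-coding genes, 4.87% had a PRMT6-only promoter peak and no PARP1 promoter peak. Where the setting itself does not fix the value, the cause was not tested. The unknown depth of both libraries limits what absence of overlap means. No paired analysis was possible because 1 library was made for either protein.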
